A study of Mus musculus with 3 samples.

Results

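The comparison described here sets the dental papilla of the newborn mouse at postnatal day 3 (P3) against that of the fetus at embryonic day 18 (E18), gene by gene. Every probe set that is not an array control was taken, the P3 value was divided by the E18 value, and the ratio was given on the log2 scale as P3 minus E18. The 2 arrays are 2 of the 3 in the series, the other being embryonic day 16 (E16), and 12113 of 18193 named genes were measured in the comparison. Per the labels, all animals were ICR mice, an outbred stock with no genotype or treatment named, and each RNA sample pooled more than 20 papillae that had been separated by enzyme from molar germs of the lower jaw. RNA was amplified in 2 cycles before hybridisation. Each stage has 1 array, so the stages cannot be tested against each other and no standard error or p-value is given. All differences are between 2 pooled samples, in which a change in the share of a cell type and a change in RNA per cell cannot be told apart.

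The dental papilla is the mesenchymal core of the tooth germ and becomes the dental pulp. At its border with the enamel epithelium, papilla cells leave the cell cycle and become odontoblasts, which secrete a collagen-rich predentin that then mineralises to dentin. Dentin sialophosphoprotein, encoded by Dspp, is the protein most used to mark that secretion, while the enamel side makes amelogenin and related proteins. The comparison asks which genes of dentin secretion and of cell division differed between a stage just before birth and one just after it.

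The deposited values are ratios, and the signal on each array was worked out from them. A recovered signal is a lower limit, and one above 716 may be wrong by a factor that is the same at both stages, while the ratio between stages is as deposited. Levels are therefore compared between stages only within a probe set. Values below 82.0, the pooled median signal, were raised to it. A gene with 1 stage below this floor has only a bound, written as "at least". A gene is represented by its probe set with the highest mean recovered signal over the 3 stages, called the brightest, and the other probe sets of the gene serve as a second reading of the same RNA on the same arrays. This choice does rank signals between probe sets, so for genes with signals above 716, such as Col1a1, which probe set is the brightest is uncertain.

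Of the 12113 measured genes, 494 (4.08%) were higher at P3 by a factor of 2 or more and 1429 (11.8%) lower by that much. Bounds made up 110 of the higher and 123 of the lower genes. A 4-fold difference was reached by 78 higher and 157 lower genes. The median of all genes was -0.15, and the split depends on the scaling. Higher genes made up 25.7% of those past 2-fold as deposited, 39.7% after median scaling and 47.7% after quantile normalization. The 18 hybridisation spike-in probe sets read bacterial or phage RNA that is usually added in a fixed amount just before hybridisation. They were lower at P3 by a median of 2.22-fold, with P3 over E18 ratios of 0.236 to 0.608. Scaling to them would add 1.15 to every log2 difference, and any gene less than 2.22-fold lower as deposited would then read as higher at P3. Such controls do not read the amount of papilla RNA or its amplification, so this scale shows only how far directions depend on scaling. Which scale is closer to the tissue was not tested. Directions and counts given here are those of the deposited scale unless the spike-in scale is named. RNA quality controls also differed. The ratio of 3′ to 5′ probe sets at P3, relative to E18, was 0.634 for actin and 0.250 for Gapdh.

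Among 5007 genes with 2 or more measured probe sets, every probe set was at least 2-fold higher in 44 (0.879%) and at least 2-fold lower in 156 (3.12%). The brightest probe set was past 2-fold upwards in 215 of these genes and downwards in 765, so 20.5% and 20.4% of such calls were shared by all the gene's probe sets. The sign alone was shared by all probe sets in 74.4% of the higher and 70.7% of the lower genes. In 21 genes, 2 probe sets lay past 2-fold in opposite directions. Over 3994 genes with 2 probe sets at or above the floor at both stages, the brightest and the next differed by a median of 0.47 log2 units, and by more than 1 in 17.2%. These figures take the place of replicate error, which 1 array per stage cannot give, and they miss any error that a whole sample shares. The part of RNA quality in the disagreement was not tested.

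**Figure D1:**
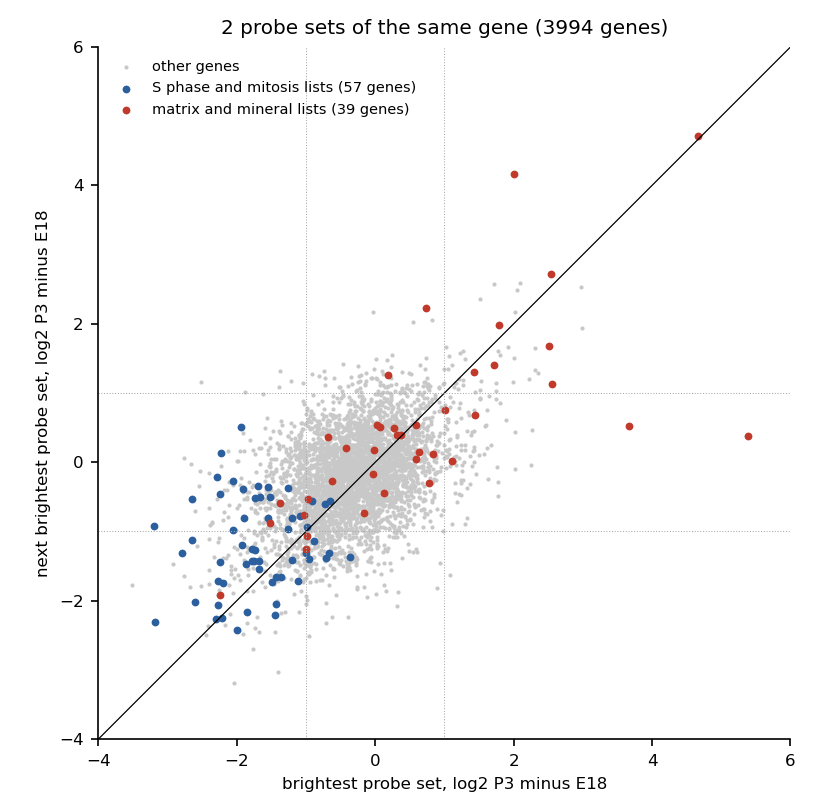
Difference between P3 and E18 (log2) of the brightest probe set of a gene (horizontal) against that of the next brightest (vertical), for 3994 genes with both at or above the floor at both stages; the diagonal marks equality and dotted lines mark 2-fold. Genes of the S phase and mitosis lists (blue) lie mostly in the lower left, genes of the matrix and mineral lists (red) spread from the lower left to the upper right, and Col1a1 stands far right with 5.38 on one probe set and 0.38 on the other.

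Genes that copy DNA and separate chromosomes were lower at P3 across nearly all of their steps. Of 22 measured genes that license replication origins or form the fork helicase, 17 lay past 2-fold as lower and 0 as higher, with a median of -1.66. The corresponding counts were 20 lower and 0 higher of 26 DNA synthesis genes (median -1.47), and 21 lower and 0 higher of 25 kinetochore and spindle checkpoint genes (median -1.73). For spindle and cytokinesis genes they were 27 lower and 0 higher of 31 (median -1.44). Over all genes the share lower was 11.8% and the median -0.15. On the spike-in scale far fewer would be lower: 5 of 22 licensing, 6 of 26 synthesis, 4 of 25 kinetochore and 3 of 31 spindle genes, with 1 spindle gene higher. Mki67, the marker of dividing cells used in tissue sections, had a recovered signal of 2006 at E18 and 629 at P3 on its single probe set, 3.19-fold lower.

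For 5 of these genes the 250 bases before the annotated start are printed, from the RefSeq promoter table with build GRCm38.p6, because letters known from cell cycle promoters can be seen in them or, in Rfc4, cannot. They are Cdk1, the kinase that starts mitosis, Cdc20, which triggers chromosome separation, Top2a, which untangles DNA, Mcm7, a subunit of the helicase, and Rfc4, a subunit of the clamp loader. Each runs 5′ to 3′ towards the gene, and all lie on the minus strand. Capitals mark 3 kinds of motif, searched on both strands, so that a match may be printed as its reverse complement. The first is the cell cycle genes homology region, taken as TTTGAA and as TTTAAA. The second is CCAAT, the box bound by NF-Y, which reads ATTGG in reverse. The third is an E2F form, which may be TTTCGCGC. A second E2F form searched was TTTGGCGC. The last was TTTCCCGC, which reads GCGGGAAA in reverse in Mcm7. Matches of different motifs do not overlap in the 5 windows shown. Mcm7 has 2 annotated starts in the table and the upstream one is shown.
Cdk1, chr10:69352913-69353162: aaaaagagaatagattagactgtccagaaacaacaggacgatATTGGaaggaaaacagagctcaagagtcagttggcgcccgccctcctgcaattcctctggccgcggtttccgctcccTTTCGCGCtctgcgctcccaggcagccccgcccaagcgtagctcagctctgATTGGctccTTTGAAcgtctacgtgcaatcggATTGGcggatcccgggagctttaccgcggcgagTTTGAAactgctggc
Cdc20, chr4:118437344-118437593: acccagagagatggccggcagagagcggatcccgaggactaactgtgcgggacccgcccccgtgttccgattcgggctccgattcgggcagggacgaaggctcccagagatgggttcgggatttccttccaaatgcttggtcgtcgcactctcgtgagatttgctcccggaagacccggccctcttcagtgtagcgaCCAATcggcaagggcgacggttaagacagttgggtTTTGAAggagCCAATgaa
Top2a, chr11:99024190-99024439: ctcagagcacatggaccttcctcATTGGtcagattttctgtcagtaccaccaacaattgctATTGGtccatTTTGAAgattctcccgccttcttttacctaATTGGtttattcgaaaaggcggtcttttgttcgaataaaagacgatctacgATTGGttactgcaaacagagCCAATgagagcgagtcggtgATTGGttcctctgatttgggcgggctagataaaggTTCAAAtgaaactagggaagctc
Mcm7, chr5:138171884-138172133: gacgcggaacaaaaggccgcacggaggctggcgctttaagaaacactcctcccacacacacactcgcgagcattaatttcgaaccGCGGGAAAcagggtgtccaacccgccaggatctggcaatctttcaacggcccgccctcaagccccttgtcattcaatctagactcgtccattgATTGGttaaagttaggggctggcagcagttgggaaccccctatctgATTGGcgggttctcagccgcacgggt
Rfc4, chr16:23127731-23127980: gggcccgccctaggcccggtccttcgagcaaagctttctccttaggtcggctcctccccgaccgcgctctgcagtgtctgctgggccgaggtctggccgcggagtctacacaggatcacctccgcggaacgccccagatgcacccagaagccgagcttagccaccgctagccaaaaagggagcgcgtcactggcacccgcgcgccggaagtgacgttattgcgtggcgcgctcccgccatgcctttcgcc

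The promoters of the lists can be described by how many hold these letters. A promoter was matched for 65 of 79 genes of the S phase lists (licensing, synthesis, chromatin assembly and recombination), 63 of 78 of the mitosis lists (entry, kinetochore and spindle) and 72 of 102 of the matrix and mineral lists. A CCAAT box in either direction was present in 63.1% of the S phase and 63.5% of the mitosis genes, in 41.7% of the matrix genes and in 40.3% of the measured genes with a promoter. Promoters with 2 or more such boxes made up 36.9%, 34.9%, 5.56% and 14.7% in the same order. An E2F form was found in 23.1% of S phase, 11.1% of mitosis and 1.39% of matrix genes, against 3.27% of measured genes. TTTGAA or TTTAAA was found in 23.1%, 42.9% and 25% of these lists and in 21.4% of measured genes. Over all 27025 genes of the table the shares were 37.5% (CCAAT), 11.5% (2 or more CCAAT), 1.78% (E2F forms) and 28.1% (TTTGAA or TTTAAA). These are counts of letters, and no binding was measured. Rfc4, whose window holds none of them, was among the 12 steepest lower genes with agreeing probe sets.

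In the licensing group, which loads the helicase on DNA before S phase, several genes were read by more than 1 probe set with the same outcome. Mcm7 had a recovered signal of 890.0 at E18 and 179.8 at P3, 4.95-fold lower, and all 4 of its probe sets lay between -2.31 and -1.30. Mcm3, another helicase subunit, went from 1118 to 330.0, 3.39-fold lower, and its other 3 probe sets gave bounds of -1.73, -1.43 and -1.15. Timeless, a fork protection gene, read 576 at E18 and 124.9 at P3 and was 4.61-fold and 3.37-fold lower on its 2 probe sets. Geminin (Gmnn), which blocks a second round of licensing, was 7.84-fold lower, from 1752 to 224, on 1 probe set. The largest value of the group, 9.18-fold lower for Dtl, which directs the destruction of the licensing factor Cdt1, came from 1 of 5 probe sets, and the other 4 lay between -1.26 and -0.69. Mcm5 was also split, with -2.23 and a bound of -1.63 on 2 probe sets and 0.13 on the other. The 5 genes that stayed within 2-fold were Tipin, Gins4, Mcm10, Mcm2 and Gins3, at -0.66 to -0.31, although the second probe set of Mcm2 lay past 2-fold at -1.37.

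Genes that build the new strand and supply its nucleotides followed the same direction in all 26 measured members. Rfc4 had a recovered signal of 1265 at E18 and 167.9 at P3, 7.54-fold lower, and its other probe set was at least 4.18-fold lower. The primase subunit Prim1 went from 1568 to 258, 6.09-fold lower, with 4.05-fold on the other probe set. Deoxycytidine kinase (Dck), which salvages nucleosides, was 4.63-fold and 4.78-fold lower on 2 probe sets. Top2a, from 2650 to 824, was 3.22-fold lower and its second probe set lay at -1.54. The sliding clamp gene Pcna was lower by less, 2.40-fold, from 1453 to 605 on 1 probe set. Ribonucleotide reductase depended on the probe set. Rrm2 gave -2.78 and -1.31 on 2 probe sets and a bound of -0.59 on the other, and Rrm1 gave -2.29 on the brightest but 0.31 and -0.21 on the others. Thymidylate synthase (Tyms) lay near the floor, at 113 and 88.7, and differed by -0.35. Pole was below the floor at both stages.

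The histone and chromatin genes of S phase and the recombination genes were also lower or within 2-fold, with none higher. Of 13 measured chromatin assembly genes 7 were at least 2-fold lower (median -1.42), and of 15 measured recombination genes 9 (median -1.03). These are 53.8% and 60%, against 11.8% of all genes. With spike-in scaling 1 gene of each list would be lower and 0 higher. Uhrf1, which carries DNA methylation through replication, went from 1668 to 367, 4.55-fold lower, and its second probe set gave at least 2.68-fold. Hmgb2, a chromatin protein of dividing cells, was lower on all 3 probe sets, at -1.43, -1.77 and -2.05. Rad54l, a motor protein of recombination, was lower on all 3 as well, at -1.44 to -2.24. Dnmt1, the maintenance methyltransferase, was within 2-fold on its brightest probe set (-0.71) but gave -1.18 and -1.38 on 2 others.

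In mitosis the steepest difference with agreeing probe sets was that of the spindle checkpoint kinase gene Bub1b. Its recovered signal was 1896 at E18 and 208 at P3, 9.11-fold lower, and 4.95-fold lower on the second measured probe set. In the kinetochore list 8 of 14 genes with 2 or more measured probe sets had all of them at least 2-fold lower, where 3.12% of such genes did so overall. Cenpk, a kinetochore subunit, was 3.63-fold lower from 1309 to 361 and lay at -2.17 on its other probe set. Incenp, a scaffold of the chromosomal passenger complex, went from 3725 to 593, 6.28-fold lower, with -1.12 and a bound of -1.73 on the others. Cdca8 of the same complex gave -1.99 and -2.42 and a bound of -0.67, and the survivin gene Birc5 was 5.37-fold lower on 1 probe set. Of the same 14 genes, 12 lay below 0 on every measured probe set. The centromeric histone gene Cenpa gave -1.94 on its brightest probe set but 0.51 on the next, and Bub3 gave -1.55 and -0.36. Not every subunit was past 2-fold. Nuf2 (-0.70), Sgo2a (-0.55) and Knl1 (-0.34) were within it, and Cenpi was below the floor at P3 with a bound of -0.56.

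The kinases and cyclins that open mitosis were lower too, with 13 of 21 past 2-fold as lower and 0 as higher (median -1.48), or 3 lower and 3 higher on the spike-in scale. The lower share as deposited was 61.9%, against 11.8% of all genes. Cdk1 had a recovered signal of 2014 at E18 and 648 at P3, 3.11-fold lower, and cyclin B2 (Ccnb2) went from 1167 to 417, 2.80-fold lower. Cyclin A2 (Ccna2) was 4.82-fold lower from 936 to 194, and its second probe set gave -1.71. Aurka, which matures the spindle poles, was 5.04-fold lower on 1 probe set. Cdc25c, the phosphatase that releases Cdk1, was at least 5.27-fold lower, and at least 2.15-fold on its other measured probe set. Foxm1 and Mybl2, transcription factors of the mitotic genes, were within 2-fold. Recovered signals were 199 and 230.2 for Foxm1 and 122 and 111 for Mybl2, against a floor of 82.0. Their differences were 0.21 and -0.14, and a second Foxm1 probe set gave a bound of -0.83. Wee1, which holds Cdk1 inactive, was at 0.26.

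Of 17 chromosome structure and cytokinesis genes with 2 or more measured probe sets, 7 had all of them at least 2-fold lower, against 3.12% of such genes overall. The condensin subunit Ncaph went from 2764 to 570.5, 4.84-fold lower, with 4.18-fold on its second probe set. Tacc3, a spindle pole protein, was lower on all 3 probe sets at -1.45 to -2.32, and Prc1, which bundles the central spindle, on both, at -1.44 and -1.66. The largest single value was that of the microtubule depolymerase Kif2c, 6.27-fold lower, but its other probe sets lay at -0.54, -0.06 and a bound of -0.64. Kif11 and Tpx2 each had a probe set above 0. Among genes of mitotic exit Cdc20 and Ube2c differed more than the core subunits named here. Cdc20 had 2619 at E18 and 550.3 at P3, 4.76-fold lower, with all 3 probe sets at least 3.61-fold lower, and the ubiquitin carrier gene Ube2c was 4.44-fold lower. Of the 16 measured genes of the anaphase-promoting complex list, 5 were at least 2-fold lower (2 lower and 3 higher on the spike-in scale). The median was -0.70, and the lower share was 31.25%, against 11.8% of all genes. Core subunits such as Cdc16 (-0.09), Cdc27 (-0.23) and Anapc4 (-0.25) were within 2-fold, while Cdc26 gave -1.12 on its brightest probe set and -0.06 on the next.

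**Figure D2:**
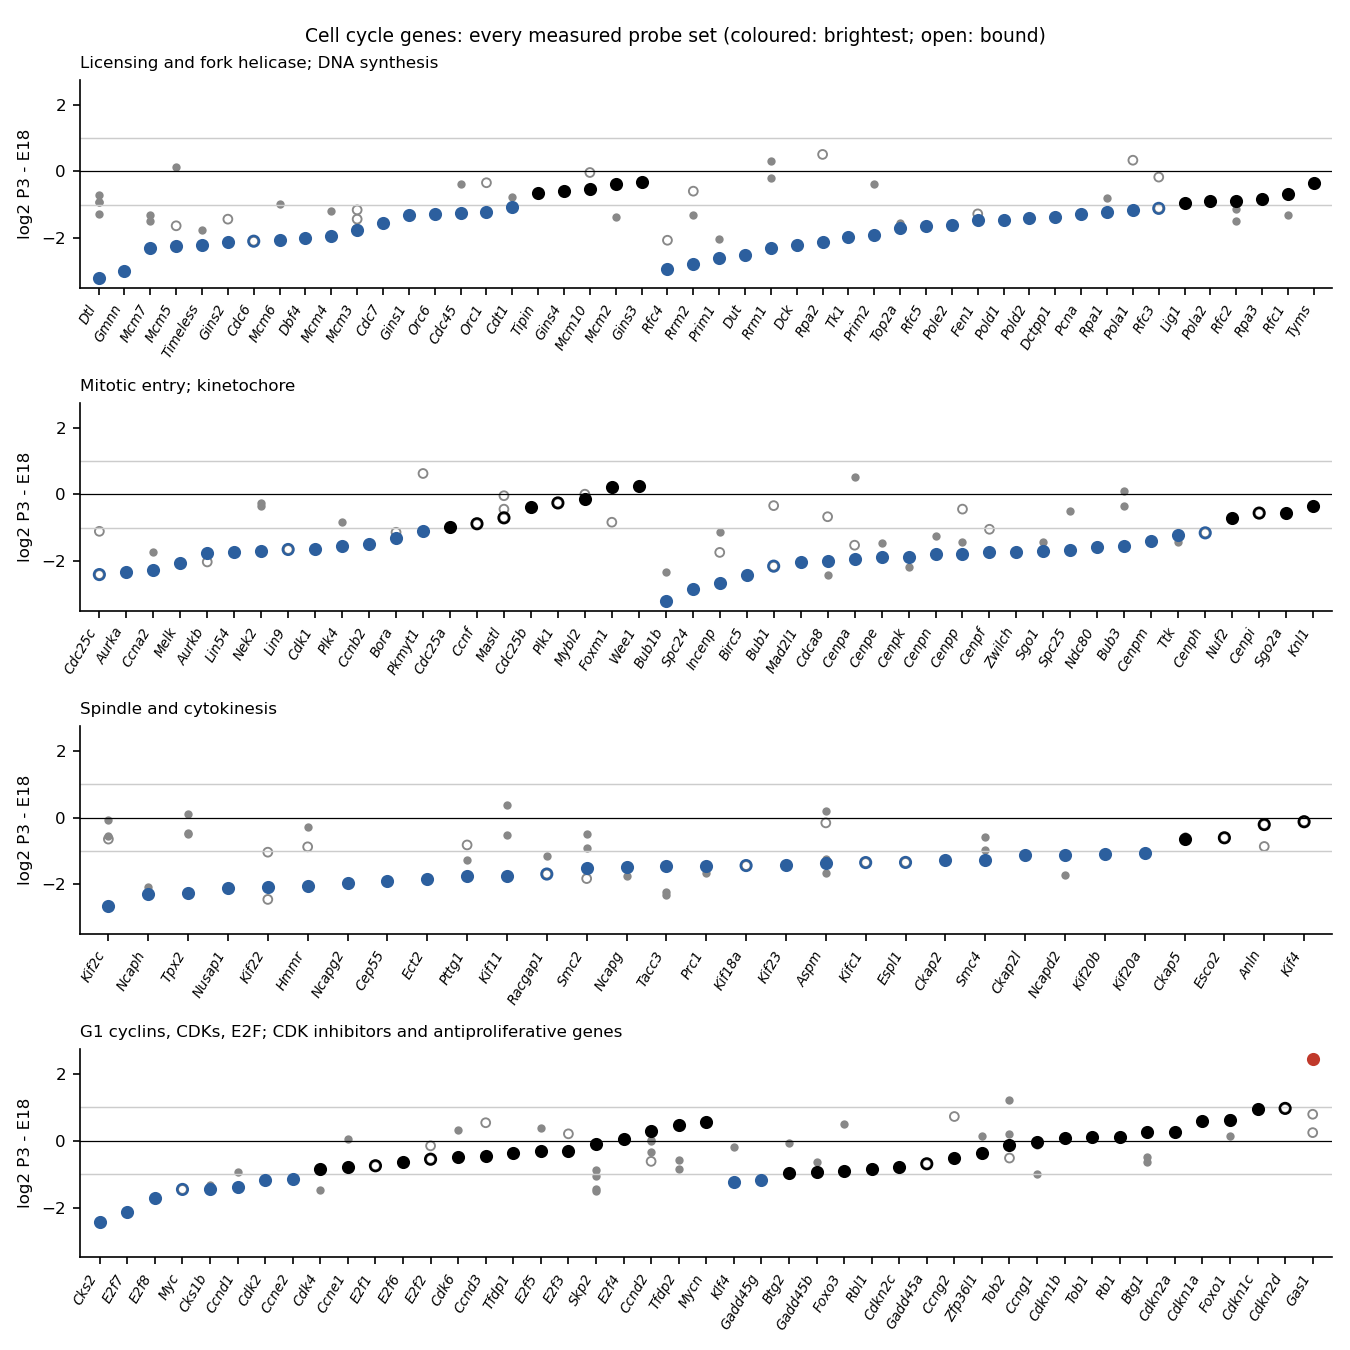
Difference between P3 and E18 (log2, vertical) for every measured probe set of the cell cycle genes; the large symbol is the brightest probe set, blue at least 2-fold lower, red at least 2-fold higher and black in between, small grey symbols are other probe sets, open symbols are bounds and grey lines mark 2-fold. In the upper 3 panels the brightest probe set of most genes lies below -1, while in the lowest panel most CDK inhibitor genes lie between -1 and 1 and Gas1 lies at 2.45.

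The G1 regulators, which commit a cell to divide, differed less than the S phase and mitotic genes. Of 23 measured, 8 lay past 2-fold as lower and 0 as higher, with a median of -0.63. The lower share was 34.8%, against 11.8% of all genes. On the spike-in scale 1 would be lower and 5 higher. Cks2, a small partner of the cyclin-dependent kinases, was 5.34-fold lower from 2775 to 519 and 5.18-fold on its second probe set. Cyclin D1 (Ccnd1) went from 3818 to 1452, 2.63-fold lower, with -0.94 and -1.45 on the others. Cyclin D2 (Ccnd2) showed no such difference, with 6 probe sets from -0.62 to 0.35. E2f7 and E2f8, repressors that are themselves made in S phase, were 4.36-fold and 3.31-fold lower, and the E2f1 value was a bound of -0.75.

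Most genes known to hold cells out of the cycle were within 2-fold. Of 22 measured CDK inhibitor and antiproliferative genes, 1 lay past 2-fold as higher and 2 as lower, and the median was -0.08. These are 4.55% and 9.09%, near the 4.08% and 11.8% of all genes. Scaled to the spike-ins, 12 would be higher and 0 lower. Cdkn1c (p57), the inhibitor linked to terminal differentiation, had 1903 at E18 and 3664 at P3, 1.93-fold higher on 1 probe set. Cdkn1a (p21) went from 1182 to 1798, 1.52-fold higher, and Cdkn1b (p27) from 505 to 536, a difference of 0.08. All 3 differ by less than the 1 log2 unit that 17.2% of probe set pairs of 1 gene exceeded. The single higher gene, Gas1, a growth arrest gene and hedgehog co-receptor, went from 372 to 2035, 5.47-fold higher, while its other probe sets gave bounds of 0.79 and 0.24. Cdkn2d, below the floor at E18, was at least 1.96-fold higher. Klf4 and Gadd45g, the 2 lower genes, were at 2.35-fold and 2.25-fold.

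Dentin genes did not move as a single group. Dspp had a recovered signal of 4191 at E18 and 19517 at P3, 4.66-fold higher on 1 probe set. Dmp1, which encodes an acidic phosphoprotein of dentin and bone, went the other way, from 3720 to 782, 4.75-fold lower. Its second probe set gave -1.92 and the last a bound of -0.86, so all 3 lay below 0. Sparc, the collagen-binding osteonectin, was 5.83-fold higher from 774 to 4513, and 6.56-fold on its second probe set, but another gave -0.04. Of 8 measured dentin and bone matrix genes 2 lay past 2-fold as higher and 1 as lower (25% and 12.5%, against 4.08% and 11.8% of all genes), and the median was 0.14. Spike-in scaling would give 6 higher and 1 lower. Bone sialoprotein (Ibsp, 486 and 335), osteomodulin (Omd, 3095 and 3296), periostin (Postn, 1327 and 1506) and Col24a1 (631 and 666) were within 2-fold. Matrix Gla protein (Mgp), an inhibitor of calcification, was below the floor at E18 and at least 1.97-fold higher. Mepe, Vtn, Ahsg, Tnn and Clec3b were below the floor at both stages.

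Of 18 genes of phosphate supply and mineral ion transport 6 lay past 2-fold as higher, 2 as lower (33.3% and 11.1%) and 10 were within it, with a median of 0.61. The shares of all genes were 4.08% higher and 11.8% lower. The spike-in scale would give 12 higher and 0 lower. The phosphate transporter Slc20a2 (PiT2) had 778 at E18 and 3025 at P3, 3.89-fold higher, and its second probe set was at least 3.09-fold higher. The vitamin D receptor gene Vdr went from 119 to 907, 7.63-fold higher, and at least 4.99-fold on the other probe set. Tissue-nonspecific alkaline phosphatase (Alpl), which frees phosphate for mineral, was 3.93-fold higher from 269.5 to 1060.1 on 1 probe set, and the anion transporter Slc26a7 2.41-fold higher from 1193 to 2877. Slc20a2 and Vdr were higher on every measured probe set, while Alpl and Slc26a7 had only 1 measured probe set each, so agreement could not be judged. Phex, the endopeptidase lost in X-linked hypophosphatemia, depended on the probe set, at 12.7-fold higher (327 to 4148) and 1.44-fold (87.0 to 124.8), and Stc2, a stanniocalcin, gave 2.56, 1.13 and 0.80.

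The same list held genes that were lower. Pannexin 3 (Panx3), a channel of differentiating odontoblasts and osteoblasts, was lower on all 3 probe sets, at 2.01-fold, 2.38-fold and 3.43-fold, and the brightest went from 3738 to 1863. Smpd3, a sphingomyelinase needed for dentin and bone mineral, went from 996 to 383, 2.60-fold lower, with -0.59 and a bound of -0.34 on the others. Ank, which exports pyrophosphate, was at -0.78 and carbonic anhydrase 2 (Car2) at -0.58. The secretory kinase Fam20c, which phosphorylates dentin proteins, was within 2-fold at 231 and 293, as was its partner Fam20a at 94.3 and 157.

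**Figure D3:**
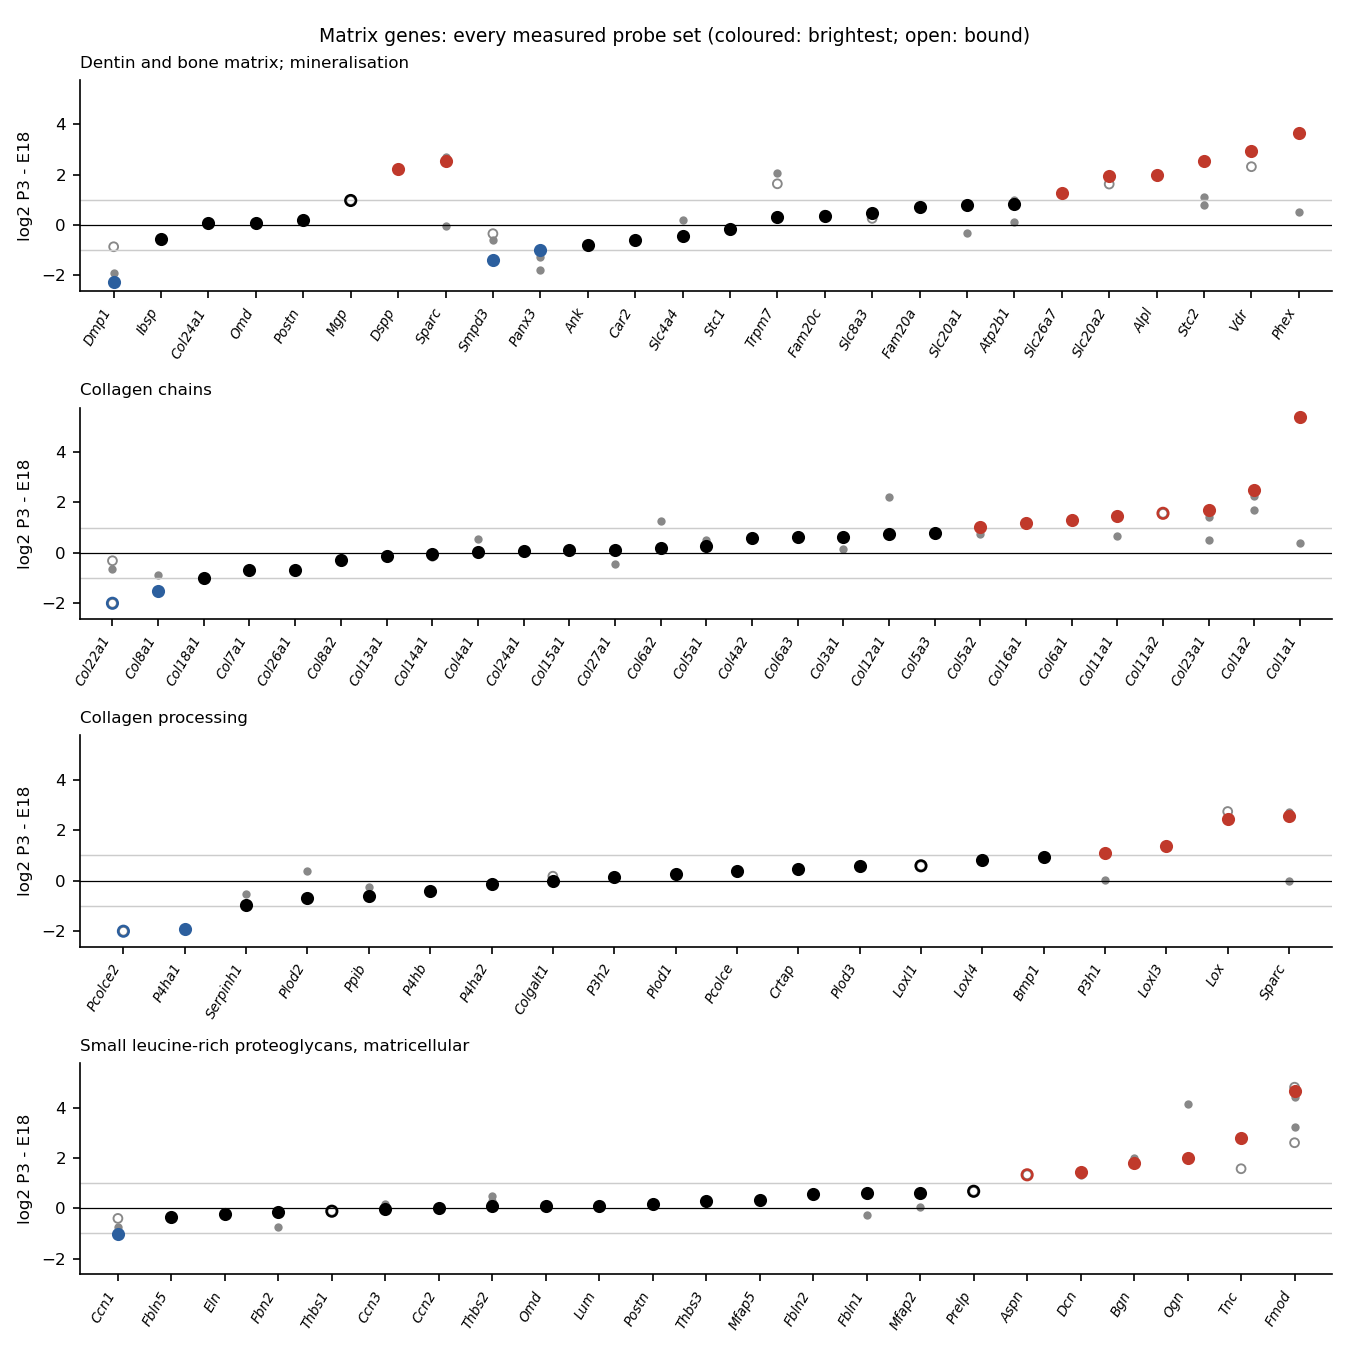
Difference between P3 and E18 (log2, vertical) for every measured probe set of dentin, mineralisation, collagen, collagen processing and proteoglycan genes; the large symbol is the brightest probe set, red at least 2-fold higher, blue at least 2-fold lower and black in between, small grey symbols are other probe sets, open symbols are bounds and grey lines mark 2-fold. All 6 probe sets of Fmod lie at or above 2.60, those of Dmp1 and Panx3 all lie below 0, and the 2 of Col1a1 lie at 5.38 and 0.38.

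Type I collagen, the bulk of the dentin matrix, was at least 2-fold higher on every probe set of 1 of its 2 chains. Col1a2 had 969.7 at E18 and 5527 at P3, 5.70-fold higher, and its other 2 probe sets gave 4.72-fold and 3.21-fold. For Col1a1 1 probe set went from 159.7 to 6650.3, 41.7-fold higher, and the other from 2096 to 2734, 1.30-fold. The size of the Col1a1 difference is therefore not settled by these arrays. Of 27 measured collagen chains 8 lay past 2-fold as higher and 2 as lower, with a median of 0.27. These are 29.6% and 7.41%, against 4.08% and 11.8% of all genes. After quantile normalization 11 were higher and 2 lower, and on the spike-in scale 21 would be higher and 0 lower. The fibril chain Col5a2 was 2.01-fold higher and Col11a1 2.72-fold, each with a second probe set at 0.75 and 0.68. The microfibril chain Col6a1 was 2.46-fold higher from 499 to 1227. Col3a1, abundant in pulp, was 1.55-fold higher, from 1700.1 to 2640.2, and lay at 0.15 on its second probe set. The basement membrane chains Col4a1 (0.03) and Col4a2 (0.60) were within 2-fold. Col8a1, a short-chain collagen, was 2.88-fold lower on its brightest probe set but lay within 2-fold on the next, at -0.88. Col22a1, of tissue junctions, was at least 4.02-fold lower on its brightest probe set, with -0.65 and a bound of -0.32 on the others.

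Among genes that trim and cross-link collagen, lysyl oxidase (Lox) had agreeing probe sets, 5.43-fold higher from 579 to 3146 and at least 6.68-fold higher. Loxl3, a relative, was 2.56-fold higher on 1 probe set. Of 20 measured genes of this list 4 lay past 2-fold as higher and 2 as lower, with a median of 0.31. These are 20% and 10%, against 4.08% and 11.8% of all genes. On the spike-in scale 14 would be higher and 0 lower. The chaperones and hydroxylases that act inside the cell were not among the higher ones, apart from prolyl 3-hydroxylase P3h1 (1.11 and 0.01 on 2 probe sets). The collagen chaperone Serpinh1 was at -0.97, and the prolyl 4-hydroxylase subunits P4hb and P4ha2 were at -0.43 and -0.13. P4ha1, a prolyl 4-hydroxylase subunit that also responds to hypoxia, was 3.82-fold lower from 966 to 253.

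The small leucine-rich proteoglycans, which bind collagen fibrils and set their spacing, included several genes that were higher on every probe set. Fibromodulin (Fmod) went from 178 at E18 to 4526 at P3, 25.4-fold higher, and its other 5 probe sets gave 9.31-fold, 21.6-fold and 26.2-fold and bounds of 6.07-fold and 28.0-fold. Biglycan (Bgn) went from 1080.3 to 3738, 3.46-fold higher, with 3.94-fold and 3.70-fold on the others. Decorin (Dcn) was 2.68-fold higher from 2243 to 6018, with 1.31 on its second probe set. Osteoglycin (Ogn) was 4.01-fold and 17.9-fold higher. Tenascin C (Tnc), a matricellular protein of mesenchyme next to epithelium, was 6.89-fold higher from 708 to 4873, and its other probe set gave a bound of 1.57.

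Of 23 measured genes in this list 6 lay past 2-fold as higher and 1 as lower (26.1% and 4.35%), where the spike-in scale would give 19 and 0. As deposited, 4.08% of all genes were higher and 11.8% lower. Every probe set was at least 2-fold higher in 5 of the 11 members with 2 or more, where 0.879% of such genes overall were. The median of the list was nevertheless 0.28, because most members were within 2-fold. Lumican (Lum) had 3078 and 3293, and Fbn2, a microfibril gene, 2452 and 2191. The thrombospondins Thbs1, Thbs2 and Thbs3 lay between -0.12 and 0.28. The lower gene was Ccn1 (Cyr61), 2.03-fold on its brightest probe set but within 2-fold on the next, at -0.76.

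On the deposited scale no gene of the secretory machinery was 2-fold higher beside these products. Of 41 measured genes of the endoplasmic reticulum, its folding enzymes and vesicle coats, 0 lay past 2-fold as higher and 6 as lower (14.6%), with a median of 0.05. The lower share was near the 11.8% of all genes. The balance turns on the spike-in scale, to 22 higher and 0 lower. The 6 were Pdia6, Hsp90b1, Pdia4, Ssr2, Atf4 and calnexin (Canx), at 2.25-fold to 2.93-fold lower, most of them folding helpers. Pdia6, Hsp90b1, Atf4 and Canx each had another probe set within 2-fold. The vesicle coat genes Sec31a (0.78), Sec24a (0.51), Copz2 (0.64) and Sec24d (0.13) were above 0 but within 2-fold. Among 17 matrix proteases and inhibitors 4 lay past 2-fold as higher and 0 as lower, or 13 and 0 on the spike-in scale. The higher share as deposited was 23.5%, against 4.08% of all genes. Timp2, a metalloproteinase inhibitor, was 3.79-fold higher from 704 to 2668, with its other 3 probe sets at 1.66, 0.86 and 0.33. Mmp14, a membrane collagenase, was 2.06-fold higher with 0.62 and a bound of 0.76 on the others.

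Transcription factors of dental mesenchyme differed little as a list, with 1 of 26 past 2-fold as higher and 4 as lower (3.85% and 15.4%, near the background shares) and a median of -0.03. Scaling to the spike-ins would give 14 higher and 1 lower. Msx1, a factor of the early tooth mesenchyme, went from 721 to 1666, 2.31-fold higher, with a bound of 0.20 on its second probe set. Pitx1 was 3.60-fold lower from 416 to 116, and Dlx2 2.52-fold lower from 2489 to 989. Tfap2a was 5.14-fold lower on its brightest probe set, with -0.86 and a bound of -0.49 on the others. Klf4, the remaining lower gene, is also on the antiproliferative list, and its value is given there. Pitx1, Dlx2 and Tfap2a are also known from dental epithelium, whose markers were lower in the same sample, and the part of that tissue in their values was not tested. Members within 2-fold included 3 factors known from odontoblast differentiation, at 828 and 881 for Sp7 (osterix), 844 and 912 for Msx2 and 279 and 296 for Nfic.

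Signalling genes were mixed on the deposited scale, and on the spike-in scale 18 of 30 BMP and TGF-beta, 8 of 24 FGF and hedgehog and 19 of 32 Wnt genes would be higher and 0 lower. In the BMP and TGF-beta list 4 of 30 lay past 2-fold as higher and 2 as lower, with a median of 0.15. These are 13.3% and 6.67%, against 4.08% and 11.8% of all genes. The ligand gene Tgfb3 had 146 at E18 and 906 at P3, 6.20-fold higher. The receptor gene Tgfbr2 was 2.06-fold, the binding protein gene Ltbp2 2.52-fold and the inhibitor Smad6 2.53-fold higher, all on 1 probe set each. The ligand gene Bmp5 was lower on both probe sets, 3.55-fold and at least 2.45-fold, and the decoy receptor gene Bambi 2.13-fold on 1. Bmp2 (0.11) and Bmp7 (0.30) were within 2-fold, as was Bmp4 at -0.92.

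Of 24 FGF and hedgehog genes 3 lay past 2-fold as higher and 5 as lower, with a median of -0.27. These are 12.5% and 20.8%, against 4.08% and 11.8% of all genes. Sonic hedgehog (Shh), a ligand made by dental epithelium, was 2.90-fold lower from 1574 to 543, and its antagonist Hhip 3.34-fold lower, with -2.16 and -0.72 on its other probe sets. The pathway's feedback genes Ptch1 (-0.60) and Gli1 (-0.38) were within 2-fold. The FGF feedback genes Spry1 and Etv5 were 3.00-fold and 2.47-fold lower, and the ligand gene Fgf3, made by the papilla, 2.36-fold and at least 2.28-fold. Fgfr3 was 2.18-fold higher on 1 probe set and Fgfr1 2.47-fold on 1 of 3. Of 32 Wnt genes 1 was higher and 3 lower (3.13% and 9.38%), again near the background. The antagonists Sostdc1 and Dkk1 were lower on both probe sets, Sostdc1 at 3.59-fold and 2.81-fold and Dkk1 at 2.48-fold and 4.48-fold. Dkk3, a relative without a clear Wnt role, was higher on both, 3.40-fold and 3.05-fold. The feedback gene Axin2 was at -0.16.

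Growth genes of the IGF axis went both ways. Insulin-like growth factor 1 (Igf1) went from 600.0 to 2009, 3.35-fold higher, and all 4 of its probe sets lay above 0, from 0.87 to 1.74. The growth hormone receptor gene Ghr was 2.02-fold higher with a bound of 0.03 on its second probe set. The fetal RNA-binding protein genes Igf2bp1 and Igf2bp3 were lower, Igf2bp1 at least 4.43-fold on one probe set and -0.25 on the other, and Igf2bp3 from -0.76 to -1.70 over 4. Hmga2, a fetal chromatin gene, was 2.09-fold lower on its brightest probe set but lay at 0.51 and 0.56 on 2 of the other 3. Of the 22 measured members 3 lay past 2-fold as higher and 4 as lower, with a median of 0.34. These are 13.6% and 18.2%, against 4.08% and 11.8% of all genes. On the spike-in scale 13 would be higher and 1 lower.

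Genes of glycolysis and the hypoxia response were lower, with 12 of 25 past 2-fold as lower and 0 as higher (48% against 11.8%) and a median of -0.95. With plain probe sets alone, those whose names end in _at with no further letter, 5 of 16 were lower, and on the spike-in scale the balance turns, to 5 of 25 higher and 3 lower. Lactate dehydrogenase A (Ldha) had 4226 at E18 and 698 at P3, 6.06-fold lower on 1 probe set. The glucose transporter Slc2a1 was 5.70-fold lower from 1894 to 332, and its other probe sets gave -1.79 and a bound of -1.01. Triose phosphate isomerase (Tpi1) was lower on all 3 probe sets, at 3.61-fold, 4.46-fold and 5.01-fold. Aldoa lay between -0.89 and -1.76 over 5 probe sets. Vegfa and Adm, which hypoxia also raises, were at 0.03 and -0.13. Gapdh, read by the control probe sets, was lower at its 3′ end (P3 over E18 ratio 0.423) and higher at its 5′ end (1.69), so the direction for this gene depends on where along the RNA it is read. Whether the same holds for other glycolytic genes was not tested.

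Of 32 nucleolar and ribosome assembly genes 12 lay past 2-fold as lower, 0 as higher and 20 within it, with a median of -0.87. The lower share was 37.5%, against 11.8% of all genes. Fibrillarin (Fbl) went from 2591 to 564, 4.59-fold lower, and -1.39 on the second probe set. The RNA polymerase I subunit gene Polr1c was 6.81-fold and 3.13-fold lower. Of 37 respiratory chain genes 9 were lower and 0 higher (24.3%, median -0.74), and of 28 cytosolic ribosomal protein genes 5 lower and 0 higher (17.9%, near the 11.8% of all genes, median -0.62). The other 28 and 23 genes were within 2-fold. In these 2 lists 34 of 37 and 26 of 28 lay below 0, while on the spike-in scale 4 respiratory and 3 ribosomal genes would be 2-fold higher and 1 of each lower. For nucleolar genes that scale gives 6 higher and 2 lower. Tubulin and neuronal-type cytoskeleton genes had 6 of 25 lower (24%, against 11.8% of all genes), or 7 higher and 2 lower on the spike-in scale. The lower genes were led by Jpt1, lower on all 3 probe sets at 3.40-fold to 11.4-fold, and by the tubulin gene Tubb2b, from 3031 to 298, 10.2-fold lower.

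**Figure D4:**
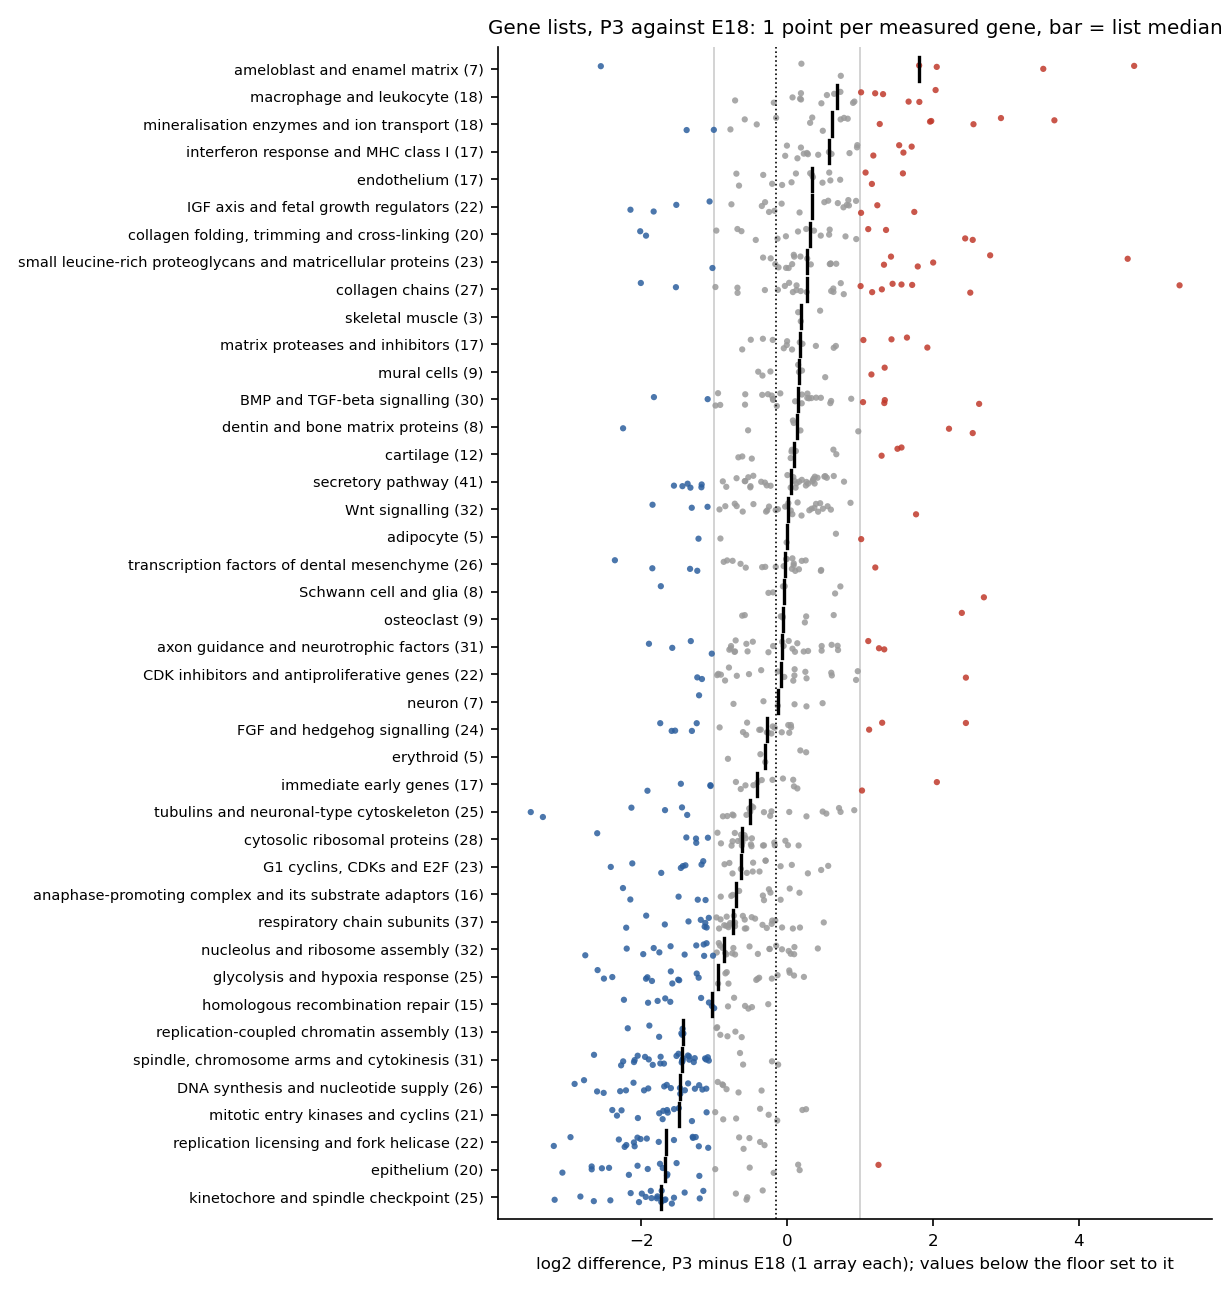
Difference between P3 and E18 (log2, horizontal) of each measured gene by its brightest probe set, by gene list, sorted by list median; blue points are at least 2-fold lower, red points at least 2-fold higher, black bars are list medians, the number measured is in brackets and the dotted line is the median of all genes (-0.15). Kinetochore (-1.73), epithelium (-1.68) and licensing genes (-1.66) have the lowest medians and enamel matrix (1.81) and macrophage genes (0.69) the highest.

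The papilla samples also held RNA of marker genes of other tissues, whose levels differed between the stages. Epithelial markers were lower at P3, with 14 of 20 measured past 2-fold as lower and 1 as higher and a median of -1.68. These are 70% and 5%, against 11.8% and 4.08% of all genes. After spike-in scaling 6 would be lower and 3 higher. The members ranged from at least 8.46-fold lower for Krt17 to 2.38-fold higher for Lama3, whose second probe set gave 0.03. Keratin 5 (Krt5), of basal epithelial cells, had 4821 at E18 and 752 at P3, 6.41-fold lower. The epithelial adhesion gene Epcam was 6.41-fold and 3.49-fold lower. The desmosome gene Dsp was 5.43-fold and 5.62-fold lower, and Trp63, the transcription factor of stratified epithelium, 4.50-fold and 5.11-fold lower. Krt14 was lower on 2 probe sets, 3.76-fold and 5.57-fold, but at least 1.54-fold higher on the other, from below the floor to 126.6. For 3 of these genes E18 was the highest of the 3 stages. At E16 the recovered signals of the same probe sets were 2069 for Krt5, 532 for Trp63 and 1452 for Dsp, where P3 had 752, 534 and 970.0. Krt8, Krt19, Krt15, Cldn7, Grhl3 and Sfn were below the floor at E18 and P3. Dental epithelium also divides, so it can contribute to the cell cycle values, and its part in them was not tested.

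Enamel genes moved against the other epithelial genes, with 4 of 7 past 2-fold as higher and 1 as lower and a median of 1.81 (6 and 1 on the spike-in scale). As deposited the shares were 57.1% and 14.3%, against 4.08% and 11.8% of all genes. The enamelysin gene Mmp20, a protease of secretory ameloblasts, went from 87.5 to 2367, 27.1-fold higher. Amelogenin (Amelx) was 4.14-fold higher from 565 to 2340 and 5.62-fold on its second probe set. Enamelin (Enam) was at least 11.4-fold and kallikrein 4 (Klk4) at least 3.51-fold higher. Ameloblastin (Ambn) was 1.67-fold higher from 3229 to 5377, and Odam, of later ameloblasts and the gum attachment, was 5.87-fold lower. Young odontoblasts are also known to make small amounts of some of these RNAs, and these arrays cannot tell the sources apart. The part of enamel-side tissue in the dentin and mineral values was not tested.

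Macrophage and leukocyte markers were higher, with 6 of 18 measured past 2-fold as higher and 0 as lower (33.3% against 4.08%) and a median of 0.69, or 16 and 0 on the spike-in scale. The mannose receptor gene Mrc1 had 440.0 at E18 and 1804 at P3, 4.10-fold higher. The chemokine receptor gene Cx3cr1 was 3.51-fold higher from 166 to 583, and the growth factor receptor gene Csf1r lay at 0.73, 1.50 and 0.50 on 3 probe sets. The members ranged from -0.71 for Laptm5 to 2.04 for Mrc1, and Cd163, Fcgr1, Aif1, Itgam, Itgb2 and Coro1a were below the floor at both stages. The osteoclast list gave 1 higher of 9 (11.1%, against 4.08% of all genes), Ctsk (cathepsin K), from 486 to 2558, 5.26-fold higher. The other defining osteoclast markers did not follow. Acp5 was at 145 and 137, Mmp9 at -0.62, and Calcr, Ocstamp and Oscar were below the floor at both stages.

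A few vessel markers were higher on the deposited scale, on which 4.08% of all genes were 2-fold higher. Of 17 endothelial genes 3 (17.6%) lay past 2-fold as higher and 0 as lower (median 0.34). Vwf was 3.00-fold higher from 145 to 436, while the defining gene Kdr lay at -0.33. Of 9 mural cell genes 2 (22.2%) were higher and 0 lower (median 0.16), Notch3 at 2.53-fold and Abcc9 at 2.23-fold. Cartilage had 3 of 12 higher (25%), all 3 as bounds, with Col2a1 near the floor, at 64.6 and 89.1. With spike-in scaling 13 endothelial, 6 mural, 9 cartilage and 7 of 9 osteoclast genes would be higher and 0 lower. Erythroid (median -0.30), Schwann cell (-0.05), neuron (-0.13), muscle (0.19) and adipocyte (-0.01) lists showed at most 1 gene past 2-fold in either direction, against 2 to 5 higher and 0 lower with spike-in scaling, and most skeletal muscle markers (16 of 19) were below the floor.

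**Figure D5:**
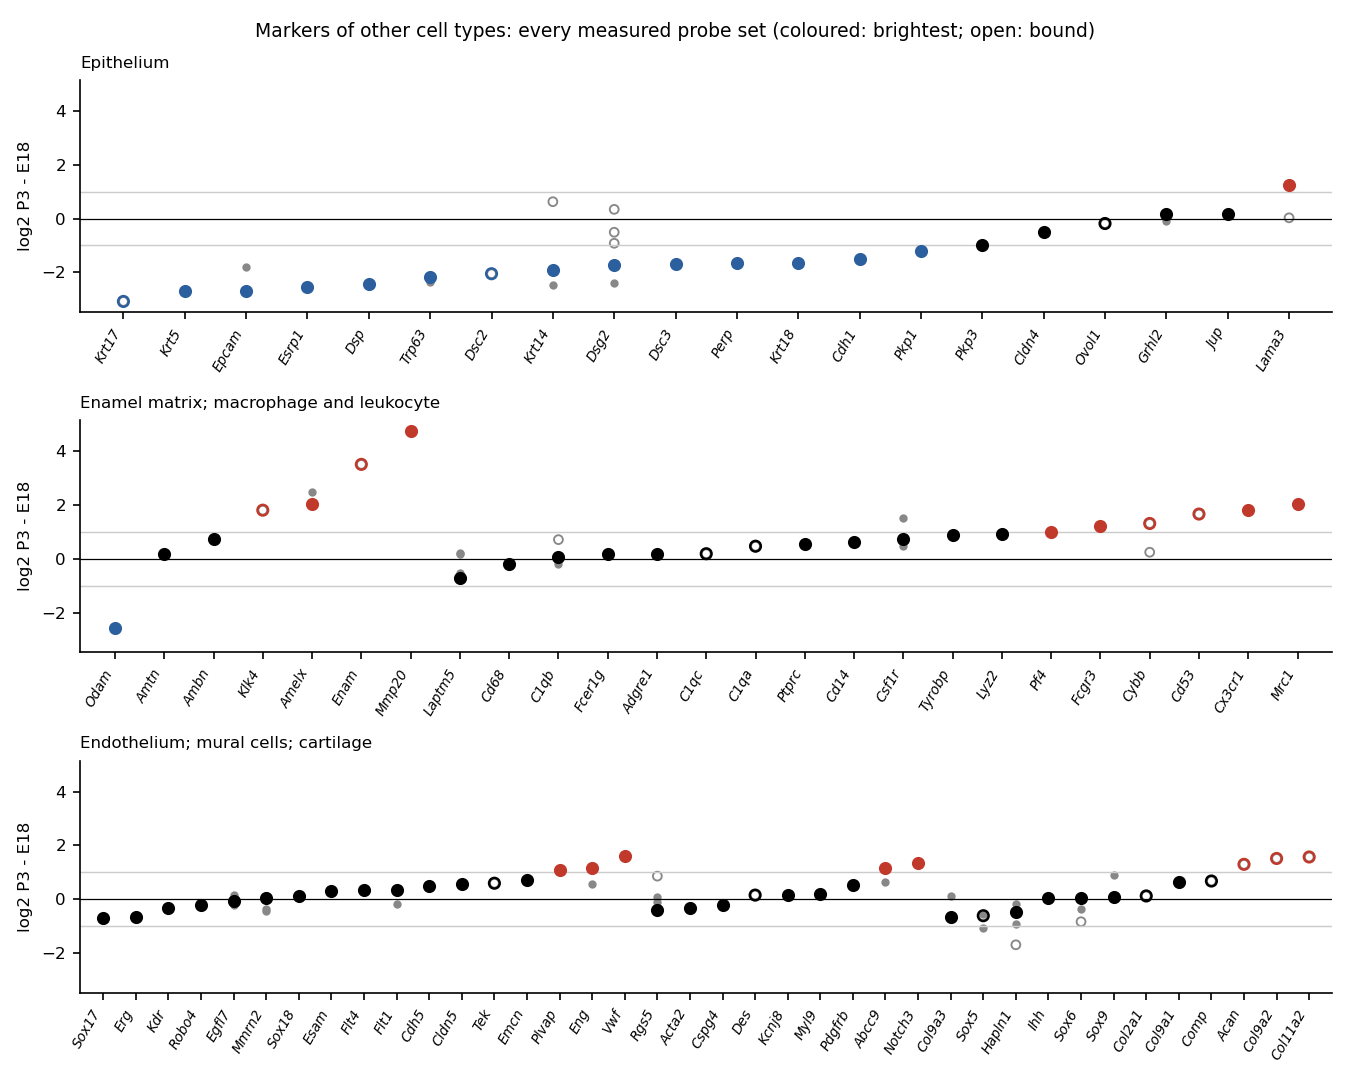
Difference between P3 and E18 (log2, vertical) for every measured probe set of markers of epithelium, enamel matrix, macrophages, endothelium, mural cells and cartilage; the large symbol is the brightest probe set, red at least 2-fold higher, blue at least 2-fold lower and black in between, small grey symbols are other probe sets, open symbols are bounds and grey lines mark 2-fold. Of the 20 epithelial genes 14 are blue, while Mmp20 at 4.76 and Enam at a bound of 3.51 lead the enamel genes and Mrc1 at 2.04 leads the macrophage genes.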

How the data were processed

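RNA from 3 pooled papilla samples was hybridised to 1 array each. The authors deposited 1 ratio per probe set and array; the software name GCOS comes, with no version, from their processing notes (per the submitters' processing notes), and how values were scaled or centred is not given in the sources here. Tested on the file, the middle of the 3 deposited ratios was 1 in 40754 of 45101 probe sets (90.4%), so each had been divided by its middle value. Of the 4347 others, 99.98% of values were whole within 0.01 of a step, which gave array factors of 0.718 (E16) and 1.08 (E18) relative to P3. The signal was then recovered as the smallest whole number of 0.1 steps that fits all 3 ratios to a relative tolerance of 3e-07. Solutions had a median of 1071 steps where randomly shifted ratios needed 18727. Of the centred probe sets, 89.3% were solved below 716, where 5% of shifted ratios were.

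The 64 control probe sets were left out, leaving 45037. The platform annotation names 1 gene for 34945 probe sets, several for 932 and none for 9160; those with several or none were not used. A gene was measured if its brightest probe set reached the floor of 82.0 at either stage. Array medians were 81.8 (E18) and 82.3 (P3). The 30 gene and 12 marker lists and the members were chosen with earlier results of these data known. Named genes are the 12 steepest in each direction whose probe sets agree, the 10 largest bounds each way, up to 5 members and the best known gene of each list, the dentin and mineralisation lists with a set of key genes, and 6 genes whose probe sets disagree most. Other members named for being within 2-fold, below the floor or a second example were chosen after their values were seen. Ccnb1 is not reported here.

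On simulated data for P3 against E18 (45037 probe sets, 18193 genes), 82.0% of signals were recovered exactly, 18.0% understated and 0.0% overstated. The simulated signals were built from the recovered ones, which are lower limits, so the understated share may be larger in the real data. The 8 alternatives were the median of probe sets, 2 other floors, no floor, quantile normalization, median scaling, plain probe sets alone (names ending in _at with no further letter) and scaling to the spike-ins, the last chosen after seeing the data. Python 3.11.15, numpy 2.4.6, pandas 2.3.3, numba 0.67.0 and matplotlib 3.10.9 were used. With 1 array per stage, precision is limited by that number.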

Additional observations from a re-analysis of the deposited data

How the results depend on the processing

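The distances of 8 lists from the median of all genes kept their sign in 48 of 48 values under 6 alternatives. These lists were chosen with earlier results known, and every alternative uses the same arrays, so the tally describes the processing alone. Over 42 lists, 197 of 251 such distances moved by less than a yardstick, the probe set spread (SD 0.50) scaled to a median of that many genes. This yardstick treats the genes of a list as independent and is not an error between samples. A muscle value could not be had because no gene passed the doubled floor. Median and spike-in scaling shift all genes alike and cannot move such a distance, so they are not counted; they do move list counts, given in the text above. Values that moved were these. For licensing genes (-1.51 as reported) the distance was -1.21 with the floor doubled, -1.29 with the median of probe sets, -1.19 with plain probe sets alone and -1.30 after quantile normalization. For collagen chains (0.42) it was 0.63 with the floor doubled, 0.54 with plain probe sets and 0.71 after quantile normalization. It became -1.40 for kinetochore genes with the median of probe sets (-1.58 as reported), -1.33 for epithelium after quantile normalization (-1.53), 0.59 for mineralisation genes (0.76) and 0.29 for proteoglycans (0.42) with plain probe sets, and -0.94 without a floor or -0.67 with plain probe sets for glycolysis (-0.80). Counts of higher genes (494) were 780 and 319 with the floor halved and doubled, 1803 with no floor, 796 after quantile normalization and 6059 on the spike-in scale. Counts of lower genes (1429) were 2563 with no floor, 874 after quantile normalization and 105 on the spike-in scale. Genes with agreeing probe sets (200) numbered 343 with no floor, 89 with plain probe sets and 1250 on the spike-in scale. Of 2575 single gene values of 328 genes under 8 alternatives 33 reversed. In 5 the probe set chosen differs: Apcdd1 (0.18) and Hmga2 (0.22) with the median of probe sets, and Malat1 (-1.64), Ndrg1 (0.070) and Pdk1 (0.46) with plain probe sets alone. The other 28 reversed on the spike-in scale, which adds 1.15 to each: Apcdd1 (0.056), Atf3 (0.098), Bambi (0.058), Brca1 (0.12), Ccn1 (0.12), Cdc26 (0.029), Cdt1 (0.065), Ckap2l (0.022), Clspn (0.075), Cox5a (0.016), Cycs (0.025), Epha4 (0.11), Hmga2 (0.084), Ier3 (0.095), Kif20a (0.074), Kif20b (0.060), Ncapd2 (0.037), Ndufb3 (0.073), Ndufv1 (0.043), Nop10 (0.0035), Panx3 (0.14), Pkmyt1 (0.043), Rad51ap1 (0.15), Rfc3 (0.039), Rpl12 (0.061), Tsr1 (0.13), Utp4 (0.043) and Wdr12 (0.0093). No paired analysis was possible because each stage has 1 array and no replicate.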

Other observations

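Several genes outside the lists had probe sets that agreed. The sialyltransferase gene St8sia6 was 5.67-fold to 7.88-fold higher at P3 on 3 probe sets, the choline kinase gene Chka 4.04-fold, 4.50-fold and at least 9.58-fold, and Ccn4 (Wisp1), a matricellular gene of osteogenic cells, 5.22-fold and at least 4.80-fold. Ildr2, Fam241a and Hook1 were also higher on every measured probe set. In the other direction the zinc transporter gene Slc39a8 was 4.10-fold and 9.15-fold lower, the fatty acid carrier gene Fabp5 3.93-fold and 5.34-fold, the cornified envelope gene Lor 4.79-fold and at least 3.87-fold, and the adenylate kinase gene Ak4 3.69-fold and 4.15-fold. Fabp5 and Lor are expressed in stratified epithelium, whose markers were lower in the same sample; its part in their values was not tested.

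Genes above the floor at 1 stage only give bounds. The largest above the floor at P3 alone were the potassium channel gene Kcnn4 (at least 20.6-fold, but at least 1.64-fold on its other probe set), Mypn (at least 8.78-fold, at least 1.28-fold on the other), Unc80 (at least 7.64-fold), Rgs4 (at least 7.26-fold, 1.47-fold on another) and Gad1 (at least 6.91-fold). Angpt4, Slitrk6 and the glial fatty acid carrier gene Fabp7 reached at least 6.75-fold, 6.37-fold and 6.49-fold, though Angpt4 was 1.92-fold higher on its other probe set. The complement gene C2 was higher as a bound on all 3 probe sets, at least 3.53-fold to 6.61-fold. Those above the floor at E18 alone were led by Acaa1b (at least 8.54-fold), Krt17 (8.46-fold), Igfbpl1 (7.72-fold) and Txnrd2 (6.38-fold, but at least 1.37-fold and 1.02-fold on the others), followed by the mitotic genes Pimreg (5.16-fold) and Cenps (4.56-fold), and by Kdf1 (4.91-fold), BC055324 (4.85-fold) and Pcnt (4.51-fold). The second probe sets of the last 3 were within 2-fold, at 1.35-fold, 1.72-fold and 1.80-fold lower.

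Probe sets of Malat1 and Dst disagreed in direction. Malat1, a nuclear non-coding RNA, was higher at P3 on 6 probe sets, from a bound of 1.73-fold to 4.0-fold, and 3.11-fold lower on 1. Dst, a cytoskeletal linker gene with epithelial and other isoforms, was 5.70-fold lower on one probe set and 2.24-fold higher on the other. Which transcripts these probe sets read was not analysed here.

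Interferon response and MHC class I genes had 4 of 17 at least 2-fold higher and 0 lower (23.5% against 4.08% of all genes higher, median 0.57; 17 of 17 on the spike-in scale), led by Irf1, 3.27-fold from 157 to 513, and Gbp2, higher as a bound on both probe sets. Immediate early genes, which respond to handling of tissue, had 2 of 17 higher and 4 lower (11.8% and 23.5%, against 4.08% and 11.8%, median -0.41), or 6 and 0 on the spike-in scale. Fos was 3.77-fold lower from 1096 to 291, and Egr3 4.15-fold higher from 148 to 615. Axon guidance genes had 3 of 31 higher and 4 lower (9.68% and 12.9%, the second near the 11.8% of all genes, median -0.07), or 16 and 0 on the spike-in scale, and Slit2, a repellent of axons, was lower on both probe sets, 3.72-fold and 2.13-fold.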
